A study of Mus musculus with 25 samples.

Results

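The clustered protocadherins are cell surface proteins of the cadherin superfamily, encoded on mouse chromosome 18 in an alpha, a beta and a gamma cluster that follow each other. The genes described here were all those whose symbol began with Pcdha, Pcdhb, Pcdhga, Pcdhgb or Pcdhgc and went on with a digit. They were 56 of the 43411 gene identifiers in the table, 12 of them alpha, 22 beta and 22 gamma, and 2 of the alpha identifiers carried the symbol Pcdha11. In the GRCm38 annotation all lay on the plus strand, the alpha genes between positions 36930184 and 37187661, the beta genes between 37264938 and 37524479 and the gamma genes between 37661793 and 37841873, together 0.912 Mb.

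Each alpha or gamma gene has its own promoter and a large variable exon, which codes for the extracellular domains and the membrane span and is spliced to constant exons that the whole cluster uses. Beta genes have no constant exons. In neurons each cell uses a few of these promoters, a choice that depends on DNA methylation, CTCF and cohesin, and the proteins bind their own kind on other cells and let the branches of a neuron avoid each other.

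RNA was measured in microglia, the resident macrophages of the brain, which were sorted as CD11b+ CD45med cells. The 23 mice were 3 months old and each gave 1 library. Homozygous Bin1-cKO mice (n = 10, 5 females and 5 males) were Bin1 flox/flox and Thy1-Cre+. Heterozygous Bin1-cKO mice (n = 7, 4 females and 3 males) were Bin1 flox/wt and Thy1-Cre+, and the WT littermates (n = 6, 2 females and 4 males) were Bin1 flox/wt and Thy1-Cre-. The Thy1 promoter drives Cre in forebrain excitatory neurons, so the gene was targeted in neurons and RNA was read in another cell type. Every WT mouse thus carried a floxed allele, and the homozygous mice carried 2 where the other mice carried 1. The labels name B6.129S6-Bin1tm2Gcp/J and FVB/N-Tg(Thy1-cre)1Vln/J as the lines crossed. Mice are named here by sex and number, as in F1 or M3.

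The genotype question for these genes is limited by how the mice were numbered, by where Bin1 lies and by which mice carried Thy1-Cre. WT and heterozygous mice all had animal numbers beginning with 02, whereas 6 homozygous mice (F1 to F3 and M1 to M3) had numbers beginning with 03 and 4 (F4, F5, M4 and M5) with 04. A difference of the homozygous mice from the others and a difference between such number ranges cannot be told apart. Bin1 lies on chromosome 18 as the clusters do, and homozygous mice carried 2 floxed alleles where the others carried 1. Chromosome 18 sequence inherited with the floxed allele and loss of neuronal Bin1 cannot be told apart either. Every homozygous mouse carried Thy1-Cre and no WT mouse did. Against WT, the Cre transgene itself and loss of neuronal Bin1 therefore cannot be told apart. Total counts per mouse ran from 10812969 to 16734846. All 10 microglia markers examined had counts in every mouse, and they summed to 60496 to 87317 CPM in WT, 56452 to 76264 in heterozygous and 52234 to 60966 in homozygous mice. Of these markers 1 was called lower in homozygous against WT mice, Itgam (log2 fold change -0.61, edgeR adjusted p = 0.000794), and its part in the results below was not tested. Bin1 itself, 4.49 Mb before the alpha cluster, was at 600 to 814 CPM (counts scaled to a common library size by TMM, per 1000000) in WT, 629 to 747 in heterozygous and 327.6 to 673 in homozygous microglia. It fell by 0.60 on the log2 scale in homozygous against WT mice (SE 0.12, edgeR adjusted p = 0.00173).

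Microglia had reads from the gamma cluster, from 1 beta gene, and hardly any from the alpha cluster. Of the 12 alpha genes, 6 had an expected count of at least 0.5 in some mouse, only 7 of 276 values reached it, and the highest was 15 counts, of Pcdha5 in homozygous F4. The summed alpha count was under 0.5 in 17 of 23 mice. A count of 0 at these depths allows up to 3 counts, that is 0.179 to 0.277 CPM in the different libraries, counting error only. Levels of single alpha genes were thus not measurable at this depth.

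The beta cluster was carried by its last gene, Pcdhb22. Of the 22 beta genes, 18 had a count in some mouse and 112 of 506 values reached 0.5, but Pcdhb22 was the only one with a count in every mouse. Its mean over all mice was 5.39 CPM, and the next beta gene, Pcdhb19, reached 0.179 CPM with counts in 11 mice. The other 21 beta genes summed to 1.27 ± 0.557 CPM in WT mice (SD, n = 6) beside 6.68 ± 1.33 CPM for Pcdhb22 alone. Pcdhb1, Pcdhb12, Pcdhb13 and Pcdhb15 had no count of 0.5 in any mouse.

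All 22 gamma genes had a count in some mouse, 11 of them in every mouse, and 453 of 506 values reached 0.5. Per kb of merged exons, Pcdhgb2 was highest at a mean of 5.74 CPM per kb, followed by Pcdhgb4 at 2.74, Pcdhga12 at 1.44, Pcdhga4 at 1.20 and Pcdhga5 at 1.03, while Pcdhgc4 was lowest of the tested genes at 0.167. Pcdhgb2 alone made up 29.8 ± 3.41% of the gamma total in WT mice (SD, n = 6). Together Pcdhgb2, Pcdhgb4 and Pcdhga12 made up 57.1 ± 3.62% of it in WT, 54.2 ± 7.14% in heterozygous (n = 7) and 60.9 ± 4.08% in homozygous mice (n = 10).

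**Figure D1:**
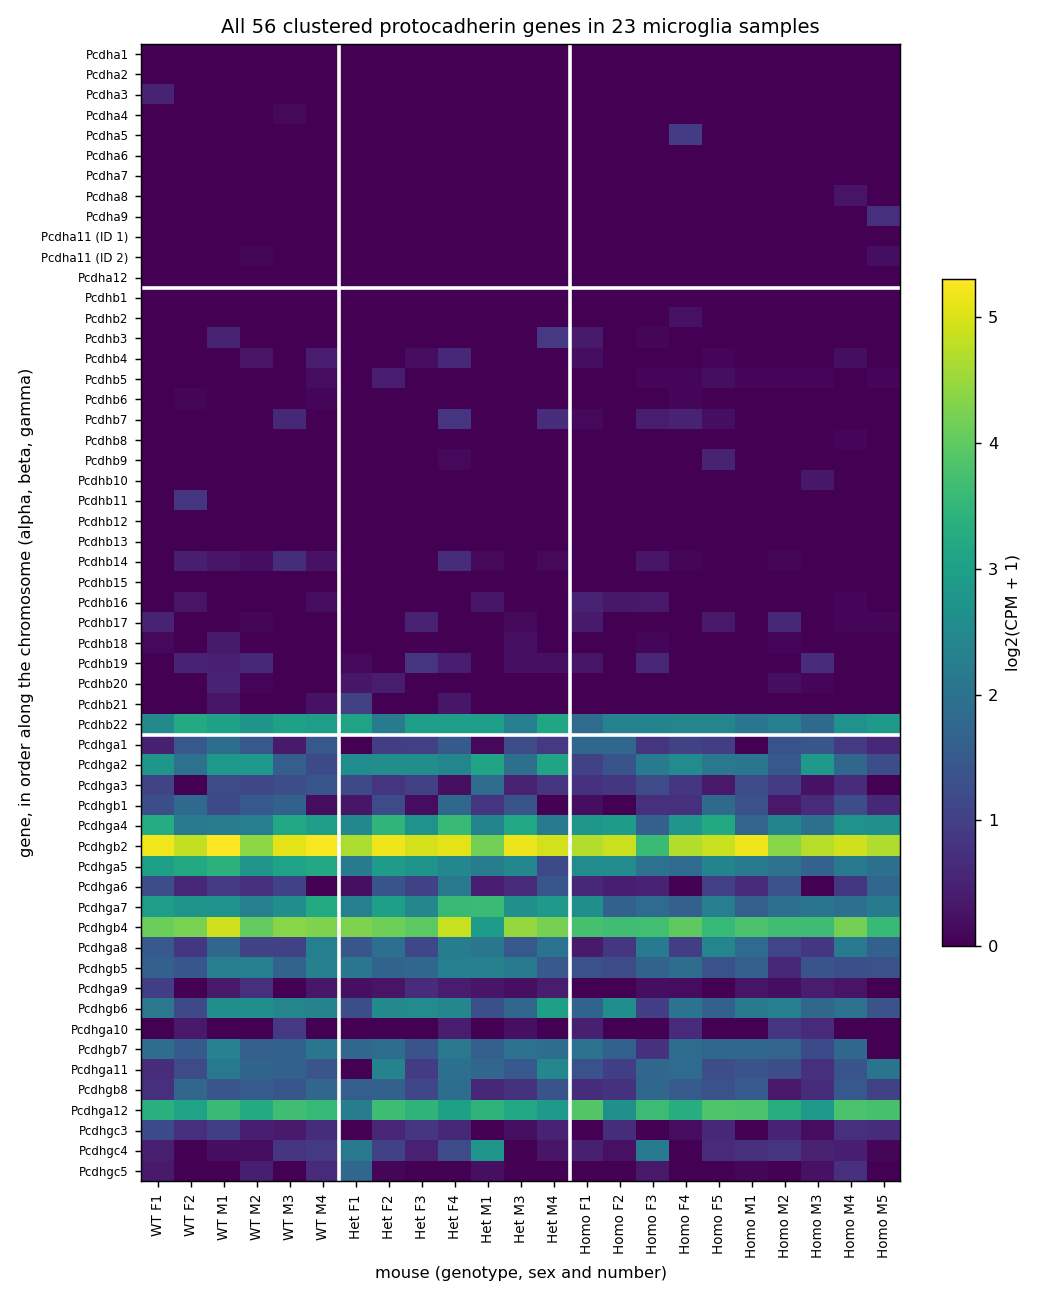
Level of each of the 56 genes (rows, in order along the chromosome, white lines between the alpha, beta and gamma clusters) in each of the 23 mice (columns, white lines between genotypes), as log2 of CPM plus 1. The alpha rows and all beta rows but Pcdhb22 are dark in nearly all mice, and Pcdhgb2, Pcdhgb4 and Pcdhga12 are the brightest rows.

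How far a read can be assigned to 1 gene differs between the clusters. Over the annotated transcripts, 2067 sequences of 50 bases, the read length, were held by every gamma gene and 2811 by every alpha gene, while no such sequence was held by every beta gene. The share of a gene's 50-base sequences found in no other gene had a median of 52.6% over the gamma genes (range 1.03 to 64.5%) and 95.5% over the beta genes. It was 91.4% for Pcdhb22, 54.7% for Pcdhga5, 50.4% for Pcdhga7, 58.5% for Pcdhgb4, 64.5% for Pcdhgb5 and 47.9% for Pcdhgb2. Only 6.18% of gamma values of at least 0.5 were exact whole numbers, compared with 42.0% of beta values, so most gamma counts held reads that RSEM had divided between genes. Gamma levels are therefore uncertain as levels of single genes, and their differences are not independent of each other.

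Because of the filter on low counts, 19 of the 56 genes were tested, Pcdhb22 and 18 gamma genes. Of the gamma subfamilies, 10 of 12 A genes, 7 of 7 B genes and 1 of 3 C genes passed. Those left out were all 12 alpha genes, 21 beta genes, Pcdhga9, Pcdhga10, Pcdhgc3 and Pcdhgc5, and the highest mean among them was 0.418 CPM.

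In homozygous against WT mice, 4 of the 19 tested genes were called lower and 0 higher, where a call needed a fold change over 1.5 and an edgeR adjusted p under 0.05. They were Pcdhga5, Pcdhga7, Pcdhgb4 and Pcdhb22. Among all 12908 genes tested, 1.75% were called lower and 1.65% higher. The log2 fold change was below 0 for 16 of the 19, compared with 48.0% of all genes, and its median was -0.45 over the 19 and 0.01 over all genes. By subfamily, 2 of 10 gamma A genes, 1 of 7 gamma B genes and the beta gene were called, and all 7 gamma B genes had values below 0. These 4 genes are also the ones by which the group was first marked out, so their calls are a description of these mice. In RNA pooled from many sorted cells, fewer cells that express a gene and less RNA per cell cannot be told apart.

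Pcdhga5, whose variable exon opens the gene at position 37694380, had the largest difference of the 4. Its level was lowest at 5.81, median 7.85 and highest at 9.67 CPM in WT mice, and 2.15, 3.22 and 4.90 CPM in homozygous mice. All 10 homozygous mice lay below all 6 WT mice, a separation that 1 of 19 tested protocadherins and 1.14% of all tested genes showed in this direction. The log2 fold change was -1.25 (SE 0.23, edgeR adjusted p = 0.000949), and the call was lost in 1 of 13 fits with other settings. Heterozygous mice spanned 1.27 to 6.67 CPM with a median of 4.46, and 6 of 7 were also below every WT mouse.

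Pcdhga7 starts at position 37714764 and overlaps an antisense gene, Gm37165, which shared 9.42% of its 50-base sequences. Its level was 3.97, 5.67 and 8.46 CPM (lowest, median and highest) in WT mice and 3.90, 6.25 and 11.2 CPM in heterozygous mice. In homozygous mice it was 2.04, 2.84 and 5.20 CPM, and 9 of 10 lay below every WT and every heterozygous mouse. The exception was F1, at 5.20 CPM. The log2 fold change against WT was -0.97 (SE 0.25, edgeR adjusted p = 0.0113). That call was lost in 3 of 13 fits with other settings, with adjusted p up to 0.243. The libraries did not mark strand, so reads of Pcdhga7 and Gm37165 cannot be told apart where they overlap. Gm37165 had at most 10 counts in any mouse.

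Pcdhgb4 starts at position 37720369, 26.0 kb after the start of Pcdhga5, and was the second most abundant gamma gene. It was at 15.2, 18.2 and 29.2 CPM in WT mice and at 10.8, 11.8 and 17.3 CPM in homozygous mice, with 9 of 10 homozygous mice below all WT mice. The log2 fold change was -0.62 (SE 0.19, edgeR adjusted p = 0.0337). WT mouse M1, at 29.2 CPM, stood apart from the other WT mice, the next of which was at 19.5 CPM, and without it the log2 fold change was -0.47 with an adjusted p of 0.132. The call was also lost without WT M3 or M4 or homozygous M2 or M5, with adjusted p between 0.0530 and 0.0568. Among 13 fits with other settings it was lost in 5, with adjusted p up to 0.292. Pcdhga6, which lies between Pcdhga5 and Pcdhga7, had a log2 fold change of -0.01 (SE 0.70) at a mean of 0.913 CPM.

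Pcdhb22, at 37517871 to 37524479, is the tested gene whose reads were least shared. It was at 4.66, 7.05 and 8.43 CPM in WT mice and at 2.49, 4.18 and 6.22 CPM in homozygous mice, and 8 of 10 homozygous mice were below all WT mice. The log2 fold change was -0.70 (SE 0.21, edgeR adjusted p = 0.0288). The call was lost without WT mouse F2, M1, M3 or M4, with adjusted p between 0.0522 and 0.0919 and log2 fold changes between -0.69 and -0.59. Among 13 fits with other settings it was lost in 5, with adjusted p up to 0.413.

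**Figure D2:**
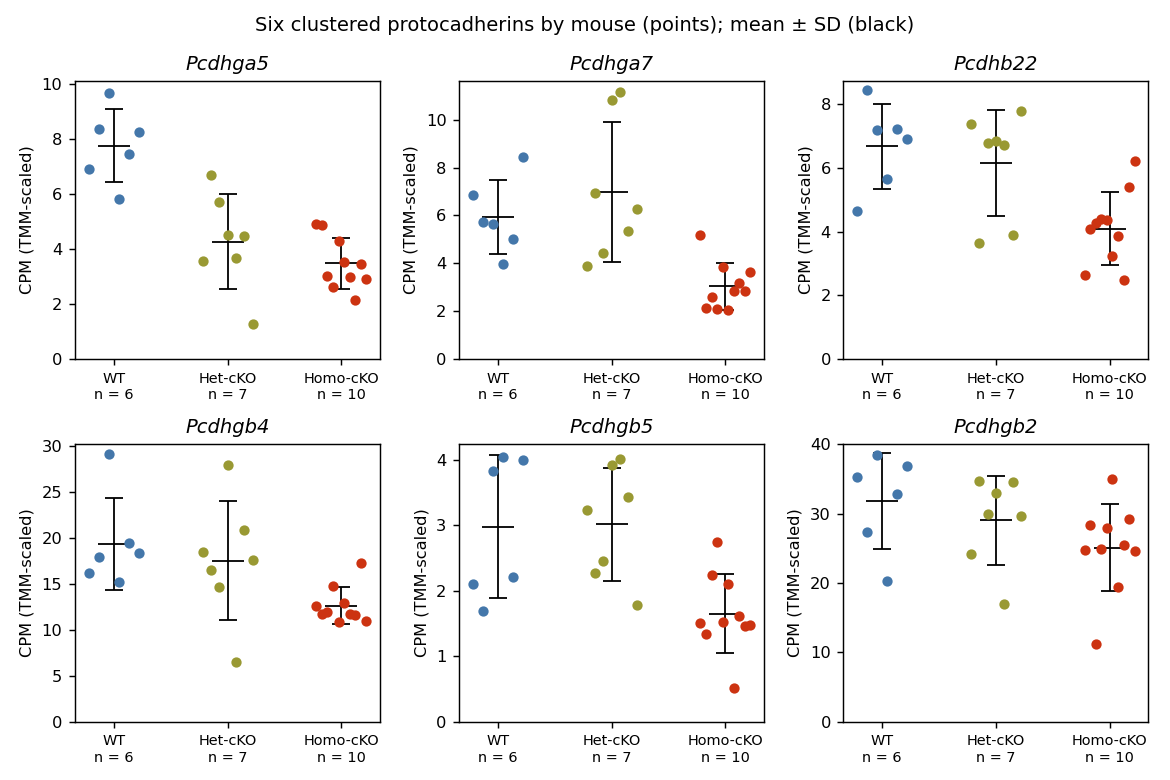
TMM-scaled CPM of 6 genes in each mouse (points), with the mean and SD of each genotype in black and axes from 0. For Pcdhga5 the 10 homozygous points (2.15 to 4.90 CPM) lie under the 6 WT points (5.81 to 9.67 CPM), while for Pcdhgb2 the groups overlap.

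The most abundant of the clustered protocadherins did not pass the test. Pcdhgb2 was at 20.2, 34.0 and 38.5 CPM in WT, 17.04, 30.0 and 34.7 CPM in heterozygous and 11.2, 25.2 and 34.9 CPM in homozygous mice. The groups overlapped, and 2 of 10 homozygous mice were below all WT mice. Its log2 fold change in homozygous against WT mice was -0.34 (SE 0.18, edgeR adjusted p = 0.230). Pcdhgb5 had a larger log2 fold change of -0.83 (SE 0.30) with an adjusted p of 0.0702.

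Not every gamma gene had a log2 fold change below 0. Pcdhga12, named here after its values were seen, was at 7.26, 9.97 and 11.7 CPM in WT and at 5.32, 12.0 and 13.8 CPM in homozygous mice. Of the 10 homozygous mice, 5 were above all WT mice and 2 were below all WT mice. Its log2 fold change was 0.15 (SE 0.22, edgeR adjusted p = 0.711). As a share of the gamma total it was 9.16 ± 1.06% in WT and 13.4 ± 3.51% in homozygous mice (SD), whereas Pcdhga5 went from 7.34 ± 1.11% to 4.39 ± 1.09% and Pcdhga7 from 5.61 ± 1.26% to 3.88 ± 1.24%. The shares in WT and homozygous mice were 29.8 and 31.4% for Pcdhgb2 and 18.2 and 16.1% for Pcdhgb4. A share also rises when other genes in the total fall, and these shares were not tested.

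Summing a cluster avoids the division of shared reads between its genes. The gamma total was 106 ± 17.1 CPM in WT, 100.5 ± 17.5 CPM in heterozygous and 79.1 ± 10.1 CPM in homozygous mice (SD), with ranges of 87.1 to 132, 81.7 to 130 and 65.4 to 93.0 CPM. The homozygous mean differed from the WT mean by -25.6%, a log2 ratio of -0.43, and 7 of 10 homozygous mice were below all WT mice. Without Pcdhga5, Pcdhga7, Pcdhgb4 and Pcdhgb5 the gamma log2 ratio was -0.27. The beta total was 7.95 ± 1.81, 7.32 ± 2.21 and 4.86 ± 1.03 CPM in the same order, and the homozygous to WT log2 ratio was -0.71 with Pcdhb22 and -0.73 for the other 21 beta genes. Those 21 genes, none of which passed the filter, summed to 0.526 to 2.02 CPM in WT and 0.0599 to 1.54 CPM in homozygous mice. For this sum 4 of 10 homozygous mice were below all WT mice. With library totals in place of TMM, the homozygous to WT log2 ratio was -0.32 for the gamma total and -0.60 for the beta total. None of the sums was tested.

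**Figure D3:**
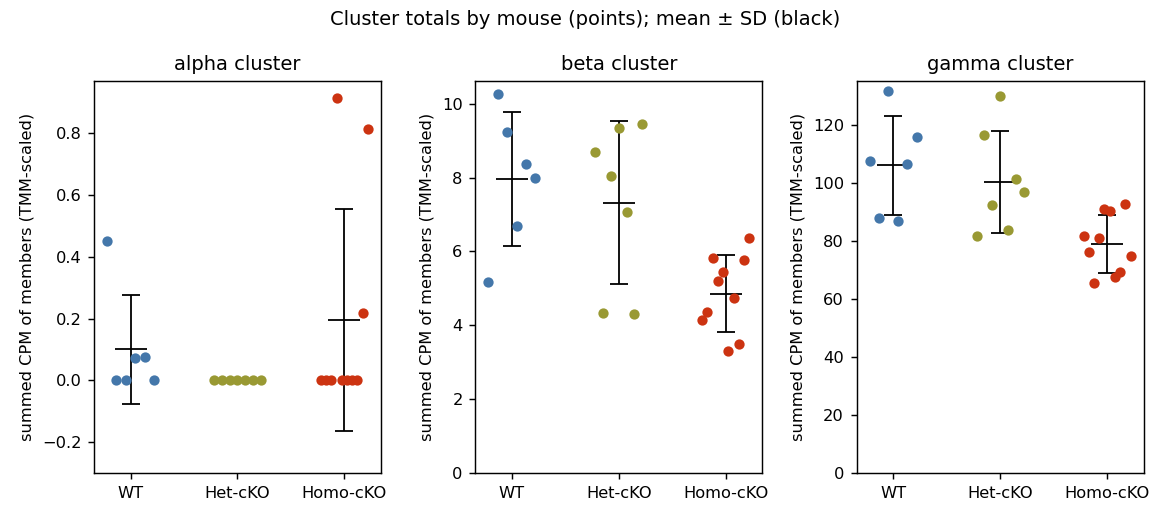
Summed TMM-scaled CPM of the alpha, beta and gamma genes in each mouse (points), with mean and SD of each genotype in black. The alpha panel stays under 1 CPM, and the homozygous gamma totals (65.4 to 93.0 CPM) overlap the lower part of the WT range (87.1 to 132 CPM).

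In homozygous against heterozygous mice, where both groups carried Thy1-Cre, 3 of 19 tested genes were called lower and 0 higher. Among all genes 4.30% were called lower and 2.32% higher. Pcdhga7 had the largest difference of the 3, with a log2 fold change of -1.20 (SE 0.24, edgeR adjusted p = 0.000973). Pcdhgb5 was at 1.77, 3.23 and 4.00 CPM in heterozygous and 0.509, 1.52 and 2.75 CPM in homozygous mice. For Pcdhgb5, 7 of 10 homozygous mice were below every heterozygous and every WT mouse, and the log2 fold change was -0.86 (SE 0.28, edgeR adjusted p = 0.0274). Without heterozygous F4 or M1 the adjusted p was 0.0681 and 0.0620, and the call was also lost in 5 of 13 other fits. Pcdhb22 was at 3.64, 6.77 and 7.77 CPM in heterozygous mice, and its log2 fold change of -0.59 (SE 0.20, edgeR adjusted p = 0.0359) was just past the fold threshold. That call was lost in 11 of 23 fits that each left out 1 mouse (heterozygous F1, F3, F4, M1 or M4, homozygous F1, M1, M2 or M3, WT F1 or M1), with adjusted p up to 0.0892, and in 9 of 13 other fits.

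Pcdhga5 and Pcdhgb4 were not called in that comparison. For Pcdhga5 the log2 fold change was -0.26 (SE 0.22, edgeR adjusted p = 0.423), and for Pcdhgb4 it was -0.47 (SE 0.18, adjusted p = 0.0680). Over the 19 genes the median log2 fold change was -0.44, beside -0.003 over all genes, and 17 were below 0. How many of all genes were below 0 in this comparison was not counted. The comparisons with WT and with heterozygous mice share the homozygous mice.

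In heterozygous against WT mice edgeR called 0 of 19 tested genes, 0% of all genes being called in either direction. DESeq2 and limma-voom also called 0. At an unadjusted p below 0.05 there were 2 of the 19 and 998 of all 12908 genes. The 2 were Pcdhga5, with a log2 fold change of -0.99 (SE 0.25, unadjusted edgeR p = 0.000608 and adjusted p = 0.448), and Pcdhgc4, with 2.11 (SE 0.98, unadjusted p = 0.0410 and adjusted p = 0.617) at a mean of 0.933 CPM. Pcdhgc4, named after its values were seen, ranged from 0 to 5.79 CPM among heterozygous mice.

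**Figure D4:**
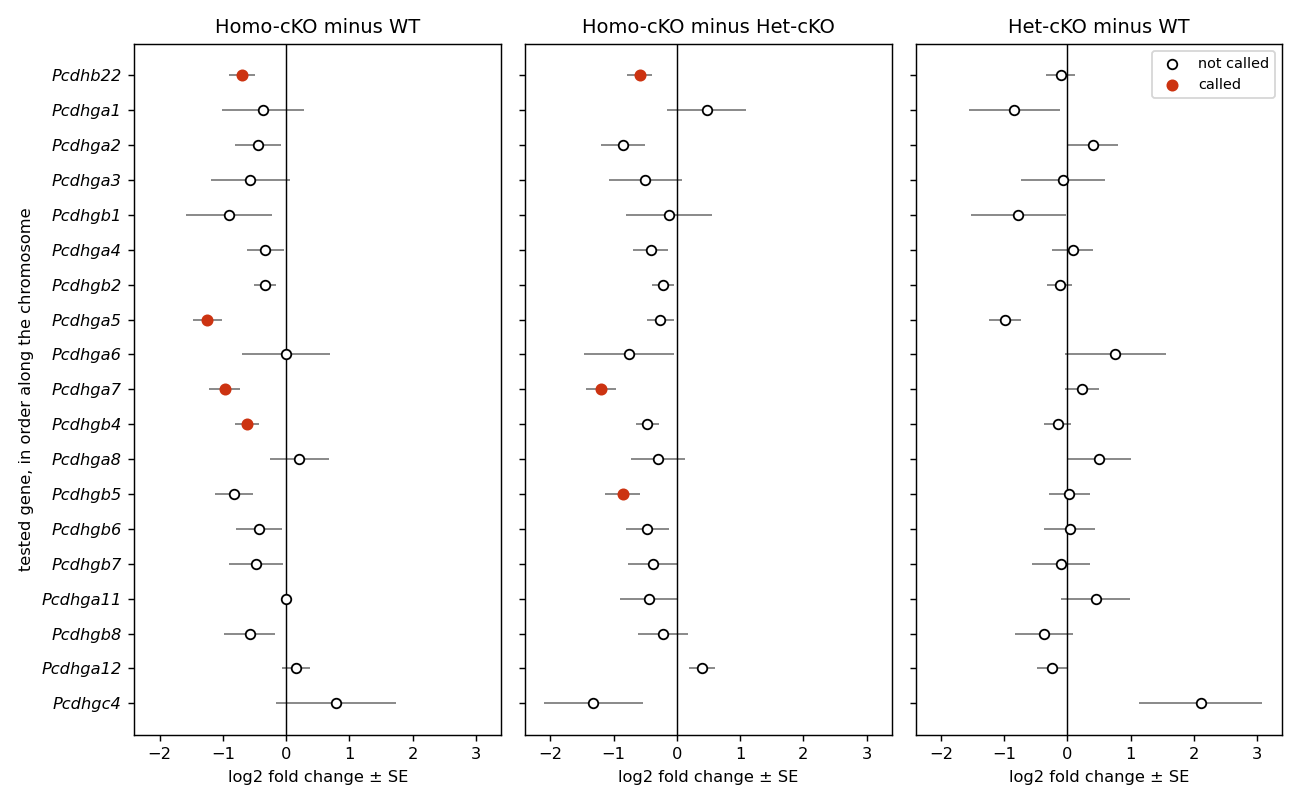
Log2 fold change with its SE for the 19 tested genes, in order along the chromosome, in each of the 3 comparisons, with called genes in red. No bar is drawn for Pcdhga11 in the first panel, where the estimate is too close to 0 for this form of SE. Called genes are Pcdhb22, Pcdhga5, Pcdhga7 and Pcdhgb4 in the first panel, Pcdhb22, Pcdhga7 and Pcdhgb5 in the second and none in the third.

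For homozygous against WT mice, a difference of the genotype effect between females and males was not detected for any tested protocadherin. The other 2 comparisons were not tested for it. Only 2 WT mice were female, and the SE of this difference ran from 0.38 for Pcdhgb2 to 2.04 log2 units for Pcdhgc4. For this interaction edgeR gave 0 of 19 and 0 of 12908 genes an adjusted p under 0.05, and 1 and 644 an unadjusted one. The smallest unadjusted p among the 19 was 0.0421, for Pcdhgb5, with an adjusted p of 0.963.

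Within the homozygous group, Pcdhb22 differed between the number ranges. It was at 2.49 to 4.27 CPM in the 6 mice numbered from 03, and at 4.35 to 6.22 CPM in the 4 from 04. The log2 fold change against WT was -0.97 with the first alone and -0.38 with the second alone, the latter with an adjusted p of 0.413. Pcdhga5 was at 2.15 to 4.90 CPM and 2.62 to 4.28 CPM in the same mice, with log2 fold changes of -1.22 and -1.29 and adjusted p of 0.00603 and 0.0177. With the mice numbered from 03 alone, 4 of the 19 were called lower against WT, and with those numbered from 04 alone 1, Pcdhga5, beside 1.99% and 1.32% of all genes. Against heterozygous mice the counts were 3 and 1, the latter being Pcdhga7, beside 3.95% and 2.36% of all genes. How many of all genes separate the number ranges as Pcdhb22 did was not counted. The homozygous mice with high immediate-early genes, described next, were all numbered from 03, so these splits overlap.

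Immediate-early genes, which respond to stimulation within minutes, stood apart in homozygous F1, F2, M1 and M2. Their mean log2 CPM was 7.58 to 8.57 in these 4 mice, 3.13 to 3.97 in the other homozygous mice and 2.66 to 3.24 in WT and heterozygous mice. The gamma total was 79.0 ± 9.64 CPM in the 4 mice and 79.2 ± 11.4 CPM in the other 6 (SD). In the same order, means were 4.07 and 3.07 CPM for Pcdhga5 and 3.45 and 4.52 CPM for Pcdhb22. They were 3.05 and 3.03 CPM for Pcdhga7 and 12.2 and 12.9 CPM for Pcdhgb4. The beta total averaged 4.13 and 5.35 CPM. These differences within the homozygous group were not tested. Without the 4 mice, an alternative chosen after seeing the data, Pcdhga5 (log2 fold change -1.40, adjusted p = 0.00349) and Pcdhga7 (-0.96, adjusted p = 0.0316) remained called against WT, and Pcdhga7 against heterozygous mice. These were 2 and 1 of the 19, where 1.37% and 2.30% of all genes were called lower. With the immediate-early level as a covariate, 1 of the 19 was called in each comparison with homozygous mice, Pcdhga5 against WT and Pcdhga7 against heterozygous mice, beside 1.14% and 1.74% of all genes called lower.

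Neuronal transcripts were lower in homozygous mice. Of 15 neuron markers, 14 had a count in some mouse, Gad2 had none, 8 were tested and 5 were called lower against WT (Snap25, Nefl, Nrgn, Gad1 and Syn1). Their summed level was 13.3 to 44.4 CPM in WT, 16.8 to 35.7 in heterozygous and 5.33 to 10.7 CPM in homozygous mice. The gamma total exceeded this sum in every mouse, at 65.4 to 132 CPM. WT mouse F2 had a neuron marker mean of -1.07 log2 CPM, inside the homozygous range of -1.81 to -0.64, and its Pcdhga5 was at 8.36 CPM and its Pcdhb22 at 8.43 CPM, both above all homozygous mice. Its gamma total of 88.0 CPM was inside the homozygous range. This is 1 mouse, and the part of neuronal transcripts in the protocadherin differences was not tested.

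With the neuron marker level as a covariate, 0 of the 19 genes were called in either comparison with homozygous mice. The log2 fold changes against WT were -1.52 (SE 0.35) for Pcdhga5, with an edgeR adjusted p of 0.0574, -1.05 (SE 0.38) for Pcdhga7, -0.83 (SE 0.31) for Pcdhb22 and -0.74 (SE 0.29) for Pcdhgb4. Each of these was larger in size than without the covariate, and each SE was larger as well. The neuron marker mean of all 10 homozygous mice was below every heterozygous mouse, and that of 7 was below all other mice. Covariate and genotype thus overlap, and this fit does not separate them. Among all genes this fit called 0.0930% lower against WT and 0.302% lower against heterozygous mice, and 29 in either direction against WT where the fit without the covariate called 439.

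Markers of other cell types were not all at the same level either. Against WT, 1 of 4 tested astrocyte markers (Aldoc, log2 fold change -1.61, edgeR adjusted p = 0.00616), 1 of 6 oligodendrocyte markers (Mobp, -1.69, adjusted p = 0.0219) and the 1 tested pericyte marker (Pdgfrb, -2.24, adjusted p = 0.0114) were called lower in homozygous mice. Of 3 tested markers of other macrophages, 1 was called higher (Ccr2, 1.28, adjusted p = 0.000812), and 0 of 3 endothelial markers were called. No marker of oligodendrocyte precursors passed the filter. The summed levels in WT and homozygous mice were 236 to 268 and 231 to 310 CPM for astrocyte markers, 180 to 254 and 153 to 210 CPM for oligodendrocyte markers, and 5.88 to 10.9 and 0.135 to 10.5 CPM for pericyte markers. The part of these transcripts in the protocadherin differences was not tested.

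**Figure D5:**
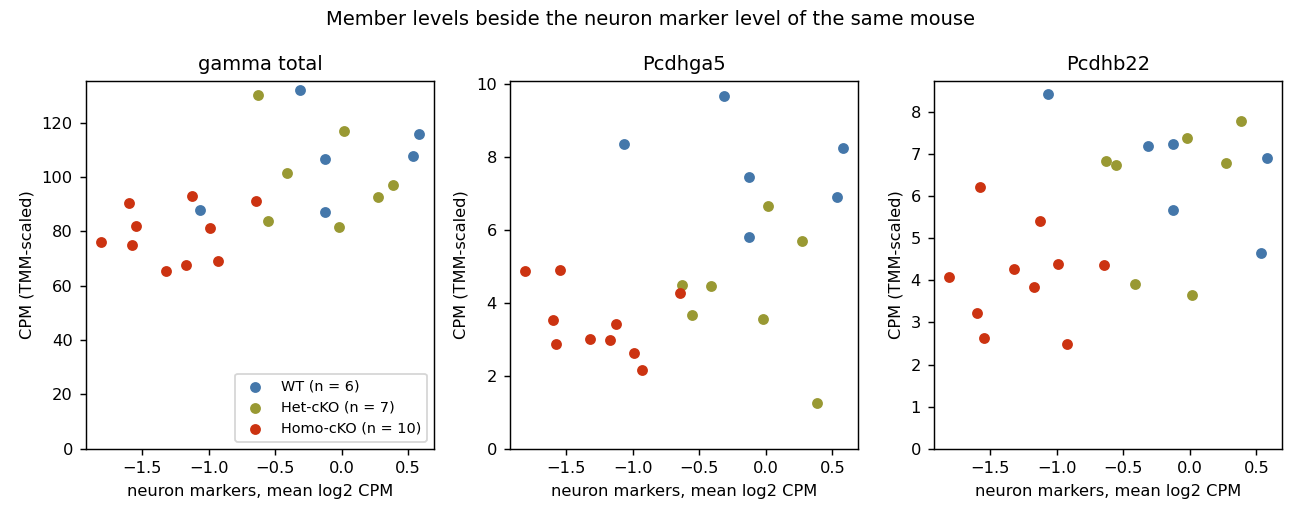
Gamma total, Pcdhga5 and Pcdhb22 in CPM (vertical axes, from 0) beside the mean log2 CPM of the neuron markers (horizontal axes) in each mouse, colored by genotype. Homozygous mice lie to the left, and the WT mouse at -1.07 on the horizontal axis has Pcdhga5 at 8.36 CPM and Pcdhb22 at 8.43 CPM.

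Genes lying around the clusters did not all move with them. Of 48 other tested genes within 2 Mb of the clusters, 3 were called lower in homozygous against WT mice (Hbegf, Vaultrc5 and Diaph1). Only Gnpda1 was called higher, and the median log2 fold change was -0.05. Among all genes 1.75% were called lower and 1.65% higher. Against heterozygous mice 4 of the 48 were called lower and 1 higher, beside 4.30% and 2.32% of all genes. Gnpda1 was at 73.5 to 90.2 CPM in WT and 114 to 154 CPM in homozygous mice (log2 fold change 0.71, edgeR adjusted p = 4.45e-06). Diaph1, a formin that nucleates actin filaments, faces the gamma cluster from the opposite strand, 1.73 kb past its end. It was at 5.70 to 11.9 CPM in WT and 2.26 to 8.54 CPM in homozygous mice, with a log2 fold change of -0.80 (SE 0.21, edgeR adjusted p = 0.0153). Inside the clusters, Taf7, 3222401L13Rik and Gm26672 were tested and not called, with log2 fold changes of 0.33 (SE 0.16), -0.07 (SE 0.15) and 0.29 (SE 0.65).

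Regulators of protocadherin promoters were expressed in these microglia. All 15 genes of the list for promoter choice and insulation were tested, and 0 were called in homozygous against WT mice. The log2 fold change was below 0 for 8 of the 15 against WT (median -0.12). Against heterozygous mice it was below 0 for 14 (median -0.20, beside -0.003 over all genes). Summed, the list averaged 828 CPM in WT, 909 in heterozygous and 771 in homozygous mice. Ctcf, the insulator protein that bridges these promoters and their enhancers, was at 64.3 CPM in WT and 67.7 CPM in homozygous mice on average (log2 fold change 0.07, edgeR adjusted p = 0.475). Nipbl, which loads cohesin, was called lower against heterozygous mice (log2 fold change -0.59, adjusted p = 0.000229), the only one of the 15 called there, and was at -0.35 with an adjusted p of 0.0257 against WT, under the fold threshold.

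Of 23 genes for partners and processing, which include the WAVE complex, focal adhesion kinases, and the ADAM10 and gamma-secretase proteases that cut protocadherins, 22 were tested and 1 was called against WT. That was Wasf1, a WAVE subunit, called lower at a mean of 0.525 CPM (log2 fold change -2.30, edgeR adjusted p = 0.0385), and 0 were called against heterozygous mice. The median of the 22 was -0.11 against WT. Protocadherins outside the clusters, the C-type alpha genes and other cadherin relatives were nearly absent. Of the 26 in the table only Fat1 and Cdh5 passed the filter, neither was called, and the whole list summed to 1.82 to 6.63 CPM in the different mice.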

How the data were processed

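The authors aligned 50-base single-end reads (mm10, Ensembl R84) with OmicSoft OSA4 and deposited RSEM expected counts per gene and mouse, from non-stranded SMARTer and Nextera XT libraries. How multi-mapping reads were handled is not given in the sources used here beyond RSEM. They removed 1 WT female and 1 heterozygous male for technical quality.

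Here counts were rounded and 42929 identifiers were matched to GRCm38 (GENCODE). edgeR 4.0.16 (R 4.3.3) was run with filterByExpr, TMM, genotype and sex in one quasi-likelihood fit, and Benjamini-Hochberg adjustment over 12908 genes. Calls needed a fold change over 1.5 and an adjusted p under 0.05. In data simulated with 200 genes changed by 1 log2 unit, 84.5% were recovered for homozygous against WT mice with 2 unchanged genes called, of 12727 tested. The changed genes were drawn from those with an average log2 CPM above 1. Some tested protocadherins, such as Pcdhga6 and Pcdhgc4, lay below that level, and smaller changes were not simulated. DESeq2 1.42.0 and limma 3.58.1 were alternatives. Shared 50-base sequences were counted over GENCODE transcripts, not the authors' gene model. Members, gene lists and tests were chosen with earlier results of these data known.

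Genes named were those called in any comparison, the 4 that marked the group, and the 2 highest tested genes per kb in each cluster. Other members, such as Pcdhga12 and Pcdhgc4, were named after their values were seen. The authors call the WT mice littermates, but the labels do not say which mice shared litters.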

Additional observations from a re-analysis of the deposited data

Results flagged for a closer look

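Of 24 groups of values examined (6 genes and 2 cluster totals in 3 genotypes), 1 held a mouse far from the others, where chance alone flags about 1 in 20 groups. Pcdhgb4 in WT mouse M1 was at 29.2 CPM, and the other 5 WT mice were at 15.2 to 19.5 CPM. The gamma total of this mouse, 132 CPM, was also the highest of all 23 mice. Without it, the Pcdhgb4 log2 fold change in homozygous against WT mice was -0.47 with an adjusted p of 0.132 (the call was also lost without any of 4 other mice), and 2 of 19 tested protocadherins were called. In that fit 170 of 13090 genes were called lower.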

How the results depend on the processing

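Against WT, where 4 protocadherins were called, the count was 2 with library totals in place of TMM, 0 with the neuron marker covariate, 1 with the immediate-early covariate, 1 with homozygous mice numbered from 04 alone, and 2 without F1, F2, M1 and M2 (added after the data were seen). Against heterozygous mice, where 3 were called, these were 2, 0, 1, 1 and 1. Leaving out each mouse in turn gave 2 to 5 called against WT (2 without WT M1, M3 or M4) and 1 to 4 against heterozygous mice (1 without Het F4). Heterozygous against WT mice gave 0 in every fit. The other fits, DESeq2 and limma-voom among them, gave 4 or 5 against WT and 2 or 3 against heterozygous mice. Members called against WT or heterozygous mice kept their direction there in every fit. Library totals moved the median of all genes to 0.11 against WT, and the share of higher calls from 48.5% to 67.4% (35.0% to 48.8% against heterozygous mice). With library totals, 168 of 12908 genes were called lower against WT (226 with TMM). Against heterozygous mice 422 were called lower (555 with TMM). Over all genes, the neuron covariate fit called 29 against WT (439 without it) and 97, 59.8% of them higher, against heterozygous mice (854 without it, 35.0% higher). There the immediate-early covariate gave 51.1% of the 854 in number, mice numbered from 04 alone 542, and the fit without the 4 mice 505. The causes were not tested. No paired analysis was possible because the labels do not link mice of different genotypes to each other. Depth limits the alpha genes, most beta genes and gamma genes near 1 CPM.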
